A study of Homo sapiens with 12 samples.

Results

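A set of 10 genes that encode inhibitors of MAP kinase signalling was followed on 12 arrays of U937, a human cell line of monocytic character that was derived from a lymphoma. They are the MAP kinase phosphatase genes DUSP1, DUSP2, DUSP4, DUSP5, DUSP6, DUSP7, DUSP10 and DUSP16, the Sprouty gene SPRY2 and the Sprouty-related gene SPRED1. The members were named by symbol, with no threshold on a measured value, but with earlier results of these data known. Shares over all genes given beside counts of members are therefore a description and not a test of the list. All 10 were found among the 19775 genes that the arrays measure. Where several probe sets were annotated to a gene alone, the one brightest on average in log2 over the 12 arrays stands for it. All 10 passed the filter on low signal.

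The study compared 3 plasmids that were brought into U937 cells by electroporation, and GFP-positive cells were sorted before RNA was taken. PRWT cells carried a GFP-tagged wild-type PML-RARA, the fusion protein of acute promyelocytic leukemia. PR2VR cells carried a second GFP-tagged PML-RARA, taken here as the protease-resistant form that the series title names, although the sample labels call this one wild type too. GFP cells carried the GFP plasmid and were the control. Each of these was sampled at 6 h and at 9 h, which gives 6 groups of 2 arrays. The titles count the hours of PRWT and PR2VR cells from infection and those of GFP cells from transfection, and both were taken to mean the electroporation. All groups share the line and the electroporation, and the fusion is a transient transgene in a line already established in culture. Nothing in the labels says whether the 2 arrays of a group came from separate transfections, so every p-value measures only the spread between these arrays, which may be technical. PRWT and PR2VR together are called the fusions below, and the 3 arrays of 1 hour and replicate number are called a set.

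MAP kinase cascades pass signals from surface receptors through Ras and Raf to ERK, and stress signals to JNK and p38. MAP kinase phosphatases are dual specificity phosphatases that remove phosphate from both the threonine and the tyrosine of the activation loop of these kinases, and many of their genes are themselves induced by the pathway that they shut down. Sprouty and SPRED proteins act further up and restrain the step from receptor to Ras and Raf. In monocytic cells these cascades take part in growth factor signalling and in inflammatory responses.

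The arrays were scaled by the authors to 1 level, with a trimmed mean MAS5 signal of 1500.2 on each, and MAS5 signal is the array's summary brightness of a probe set on a linear scale. RARA checked the labels of fusion against GFP arrays. Its probe set read 11971 to 58985 on PRWT arrays and 9281 to 41097 on PR2VR arrays, against 48.2 to 309 on GFP arrays. This was a log2 difference of 7.52 ± 0.47 (SE) between the fusions and GFP (limma, adjusted p = 8.2e-06). PR2VR and PRWT arrays overlapped in RARA (-0.40 ± 0.54, limma, adjusted p = 0.9995), so it could not check which of the 2 forms an array held. The 3 arrays of 9 h number 2 stood apart, with a GAPDH 3'/5' signal ratio of 2.21 to 2.75, against 3.82 to 12.9 on the other 9, and a median signal of 388 to 436, against 239 to 292. The same ratio of ACTB was highest on 2 PR2VR arrays, 58.2 at 9 h number 1 and 56.9 at 6 h number 2. It was 7.79 to 35.3 on the others, and its part in the differences of PR2VR cells was not tested. Of 12 myelomonocytic markers 11 were measured and 10 passed the filter, while SPI1, a defining one, did not, with a median signal of 66.2. All 4 measured B cell markers passed the filter as well, with summed signals of 4310 to 11492 on fusion arrays and 3662 to 17696 on GFP arrays. In such bulk RNA, fewer cells that express a gene and less of its RNA per cell cannot be told apart.

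DUSP1 encodes a nuclear phosphatase of p38, JNK and ERK and is an early response gene. Its brightest probe set read 3806 and 2108 on the PRWT arrays and 5026 and 4333 on the PR2VR arrays, against 1294 and 1252 on the GFP arrays at 6 h. At 9 h it read 1858 and 1178 on the PRWT arrays and 2080.5 and 1778 on the PR2VR arrays, against 1193 and 1296 on the GFP arrays. All 4 fusion arrays of 6 h lay above both GFP arrays, and the 4 PR2VR arrays lay above all 4 GFP arrays over both hours. At 9 h the fusions overlapped GFP through 1 PRWT array. Averaged over the hours, the fusions were higher by 0.95 ± 0.25 (SE) on the log2 scale, a 1.93-fold difference with a 95% interval of 0.40 to 1.49 in log2, which did not pass over all genes tested (limma, adjusted p = 0.733). PR2VR cells differed from GFP cells by 1.21 ± 0.29 (limma, adjusted p = 0.544) and PRWT cells by 0.68 ± 0.29 (limma, adjusted p = 0.9998).

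Taking the set as a block left these differences as they were and narrowed their errors. With the set as a fixed block the difference between PR2VR and GFP cells in DUSP1 had an SE of 0.23 and an adjusted p of 0.0624. With the set as a random block, an analysis added after the data were seen, it had an SE of 0.24 and passed (limma, adjusted p = 0.0466). DUSP1 was then the 1 member of 10 that rose in PR2VR cells, beside 38 of the 13959 genes tested (0.272%) called in that comparison. The call was lost when p was adjusted over all probe sets past the filter (limma, adjusted p = 0.0683). The call held in 4 and was lost in 8 of 12 repeats that each left out 1 array, with adjusted p from 0.0116 to 0.404. It was lost without any 1 array of 9 h or any 1 GFP array of 6 h, and held without any 1 fusion array of 6 h. For both fusions together the adjusted p of DUSP1 was 0.102 with the fixed and 0.079 with the random block.

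A second DUSP1 probe set did not show this pattern. It read 995 and 996 on the PRWT arrays and 682 and 442 on the PR2VR arrays, against 804 and 1151 on the GFP arrays at 6 h. At 9 h it read 253 and 1003 on the PRWT arrays and 988 and 835 on the PR2VR arrays, against 703 and 1440 on the GFP arrays. Its fusion and GFP arrays overlapped at both hours, and its log2 difference between the fusions and GFP was -0.43 ± 0.35, opposite in sign to that of the first. The third stayed below the filter. The separation of fusions from GFP was thus seen on 1 of 3 probe sets, and the mean of the 3 gave a DUSP1 log2 difference of 0.17.

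**Figure D1:**
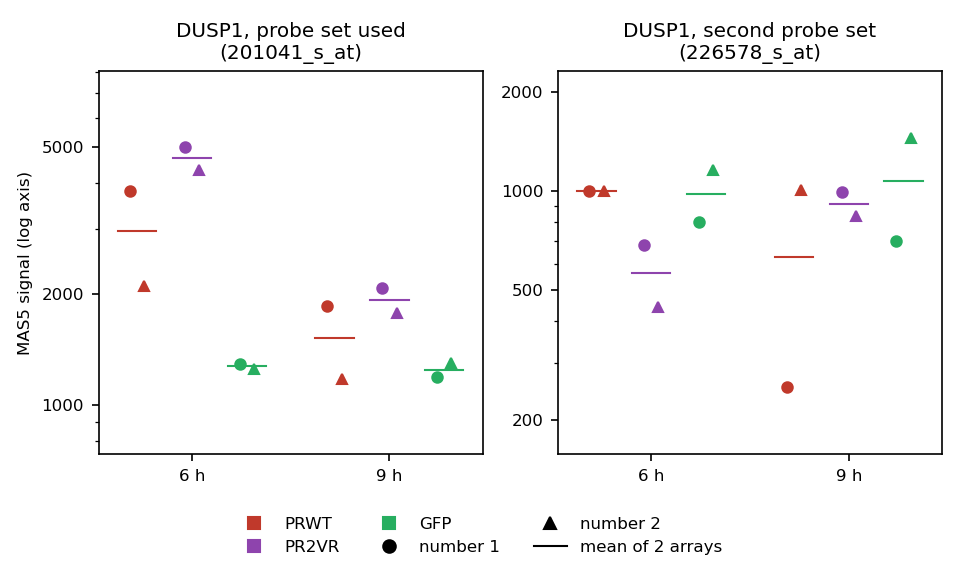
MAS5 signal (log axis) of the DUSP1 probe sets by construct and hour, 1 point per array and a line at the mean of 2 arrays. On the brightest probe set the 4 fusion arrays of 6 h read 2108 to 5026 and the GFP arrays 1252.1 and 1294, whereas on the second the fusion and GFP arrays overlap at both hours.

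The bases upstream of DUSP1 are shown because it is the member with the smallest p between the fusions and GFP, and those of DUSP10 because it has the smallest between the hours. Both are RefSeq sequences of GRCh38.p14, minus strand, of the 250 bases before the annotated start, at chr5:172771196-172771445 for DUSP1 and chr1:221742090-221742339 for the first of 2 starts of DUSP10. Capitals mark the cyclic AMP response element TGACGTCA or its core TGACGTC in DUSP1, and the CCAAT box, read as CCAAT or as ATTGG on the other strand, in DUSP10.
DUSP1: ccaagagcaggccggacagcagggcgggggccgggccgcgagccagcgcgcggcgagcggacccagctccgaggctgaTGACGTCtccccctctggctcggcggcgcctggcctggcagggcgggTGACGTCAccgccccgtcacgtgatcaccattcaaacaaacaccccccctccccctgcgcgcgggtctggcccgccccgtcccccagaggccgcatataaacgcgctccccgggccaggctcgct
DUSP10: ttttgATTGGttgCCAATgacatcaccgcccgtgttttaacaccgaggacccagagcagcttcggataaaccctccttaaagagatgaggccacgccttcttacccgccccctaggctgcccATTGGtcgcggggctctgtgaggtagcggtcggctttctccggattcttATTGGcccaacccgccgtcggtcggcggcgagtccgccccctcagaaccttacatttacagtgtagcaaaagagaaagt
These motifs and AGGTCA, the half-site of retinoic acid receptors, were searched on both strands in 35116 RefSeq windows of that length, and were chosen after the values were seen. TGACGTCA occurs in 1.65% of windows, TGACGTC, which it contains, in 3.12%, AGGTCA in 12.1% and CCAAT in 32.0%. DUSP1 holds TGACGTCA once, 125 bases before its start, and TGACGTC 3 times, at 172, 125 and 124 bases, of which the last 2 are the same palindrome read on both strands. DUSP10 holds 4 CCAAT boxes in the window shown and 1 AGGTCA before its second start, DUSP2 holds 1 AGGTCA and DUSP6 1 CCAAT. Of the 10 members 8 were matched to a window. A match of letters describes the sequence and shows no binding.

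On the probe sets used, the other nuclear phosphatases showed no such separation of constructs. DUSP2, which encodes a phosphatase of ERK and p38 found in activated blood cells, read 2251 and 2647 on the PRWT arrays and 1565 and 1785 on the PR2VR arrays, against 2253 and 1587 on the GFP arrays at 6 h. At 9 h DUSP2 read 2718 and 1455 on the PRWT arrays and 2515 and 1852 on the PR2VR arrays, against 2612 and 1196 on the GFP arrays. Constructs overlapped at both hours, and at 9 h the 3 arrays of number 1 lay above the 3 of number 2. The log2 difference between the fusions and GFP was 0.16 ± 0.29 (95% interval -0.46 to 0.78).

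DUSP4, a nuclear phosphatase of ERK and JNK, read 2620.5 and 1226 on the PRWT arrays and 844 and 2842 on the PR2VR arrays, against 2496 and 3138 on the GFP arrays at 6 h. At 9 h DUSP4 read 6513 and 1384 on the PRWT arrays and 3876 and 2774 on the PR2VR arrays, against 4525 and 1520.2 on the GFP arrays. It had the widest error of the 10 members between the fusions and GFP, with a log2 difference of -0.23 ± 0.46 (95% interval -1.22 to 0.75), and on this probe set the number 1 arrays of 9 h again lay above those of number 2. Another DUSP4 probe set showed the reverse, with 1191.5 to 1536 on the number 1 arrays of 9 h and 2952 to 3731 on those of number 2. The log2 differences of the other DUSP4 probe sets between the fusions and GFP were 0.03 ± 0.47 and 0.13 ± 0.36. The first of these read 1691 to 1974.5 on the fusion arrays of 9 h, against 1196 and 1342 on the GFP arrays. It thus separated them at that hour, as 5.32% of genes did on the probe sets used, but overlapped at 6 h. DUSP5, a nuclear phosphatase specific to ERK, read 3658 and 5423 on the PRWT arrays and 4546 and 4352 on the PR2VR arrays, against 4052 and 5760.5 on the GFP arrays at 6 h. At 9 h DUSP5 read 2001 and 5176 on the PRWT arrays and 6013 and 4028 on the PR2VR arrays, against 3907 and 3674 on the GFP arrays, the PRWT array of number 1 being the lowest of all 12. Its fusions and GFP overlapped at both hours, with a log2 difference of -0.02 ± 0.29 (95% interval -0.65 to 0.60).

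DUSP6 and DUSP7 encode cytoplasmic phosphatases with a preference for ERK, and DUSP6 is a classical transcript of ERK feedback. DUSP6 read 20698 and 11843 on the PRWT arrays and 24988 and 18385 on the PR2VR arrays, against 24275 and 15361 on the GFP arrays at 6 h. At 9 h DUSP6 read 16528 and 11929.5 on the PRWT arrays and 15946 and 12821 on the PR2VR arrays, against 13570 and 12939 on the GFP arrays. On this probe set the number 1 arrays were above the number 2 arrays at each hour, and the constructs overlapped. The log2 difference between the fusions and GFP was 0.01 ± 0.25 (95% interval -0.53 to 0.55). A second DUSP6 probe set read 5342 to 13092 on the number 1 arrays of 9 h and 9915 to 11781 on those of number 2. The other DUSP6 probe sets gave 0.01 ± 0.28 and -0.23 ± 0.23 between the fusions and GFP. DUSP7 read 5892 and 5578 on the PRWT arrays and 6162 and 5567 on the PR2VR arrays, against 11920.2 and 4199 on the GFP arrays at 6 h. At 9 h DUSP7 read 7381 and 3368 on the PRWT arrays and 10918 and 4283 on the PR2VR arrays, against 8428 and 2716 on the GFP arrays. Here too the constructs overlapped, the 9 h arrays of number 1 exceeded those of number 2, and the log2 difference was -0.00 ± 0.40 (95% interval -0.86 to 0.85).

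DUSP10 and DUSP16 encode phosphatases that act mainly on JNK and p38. DUSP10 read 4184 and 1706 on the PRWT arrays and 5624 and 3792 on the PR2VR arrays, against 2567 and 1953 on the GFP arrays at 6 h. At 9 h DUSP10 read 2160 and 1506 on the PRWT arrays and 1787 and 1772 on the PR2VR arrays, against 1765 and 663 on the GFP arrays. On this probe set both PR2VR arrays of 6 h lay above both GFP arrays of that hour, and 1 of the 2 PRWT arrays did. The share of genes with such an order was not computed. The log2 difference between the fusions and GFP was 0.66 ± 0.32 (95% interval -0.04 to 1.36) and did not pass (limma, adjusted p = 0.9999, or 0.402 with the fixed block). It was 0.33 without the GFP array of 9 h number 2, the lowest of the 12, and 0.996 without the other GFP array of 9 h. A second DUSP10 probe set gave 0.36 ± 0.28. At 6 h it read 1253 and 528 on the PR2VR arrays, against 650 and 649 on the GFP arrays, with overlap. At 9 h its fusion arrays read 791 to 1160, above 762 and 728 on the GFP arrays, as 5.32% of genes were on the probe sets used.

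DUSP16 read 1346 and 838 on the PRWT arrays and 2093 and 828 on the PR2VR arrays, against 1445 and 1036 on the GFP arrays at 6 h. At 9 h DUSP16 read 1002 and 748 on the PRWT arrays and 972 and 842 on the PR2VR arrays, against 877 and 156 on the GFP arrays. On this probe set the GFP array of 9 h number 2 stood far below the other 11. DUSP16 differed between the fusions and GFP by 0.51 ± 0.39 in log2 (95% interval -0.33 to 1.36), and by -0.02 without that array. Another DUSP16 probe set read 974 and 978 on the PRWT and PR2VR arrays of 9 h number 2, against 699 on the GFP array, and 347 to 579 on the other 9 arrays. The next brightest read 1097 and 1291 on these fusion arrays, against 1074 on the GFP array, and 20.6 to 380.4 on the other 9. On both, that GFP array was thus among the 3 highest of the 12, and their log2 differences between the fusions and GFP were 0.19 ± 0.34 and -0.22 ± 0.74.

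SPRY2 encodes Sprouty 2, which restrains receptor signalling to Ras and ERK. It read 13047 and 16851 on the PRWT arrays and 6835 and 19316 on the PR2VR arrays, against 19349 and 26886 on the GFP arrays at 6 h. At 9 h SPRY2 read 20621 and 21834 on the PRWT arrays and 17559 and 15958 on the PR2VR arrays, against 23327 and 14597 on the GFP arrays. At 6 h the 4 fusion arrays lay below both GFP arrays, though the nearest values, 19316 for PR2VR and 19349 for GFP, were close, and at 9 h the constructs overlapped. The log2 difference between the fusions and GFP was -0.39 ± 0.29 over both hours (95% interval -1.01 to 0.24) and -0.80 ± 0.41 at 6 h (limma, adjusted p = 0.9997).

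SPRED1 encodes a protein that brings the Ras inhibitor neurofibromin to the membrane. SPRED1 read 495 and 549 on the PRWT arrays and 505 and 1072 on the PR2VR arrays, against 727 and 379.5 on the GFP arrays at 6 h. At 9 h SPRED1 read 1119 and 1156 on the PRWT arrays and 956 and 1071 on the PR2VR arrays, against 502 and 486 on the GFP arrays. The 4 fusion arrays of 9 h lay above both GFP arrays, whereas at 6 h the constructs overlapped. The difference was 1.03 ± 0.41 in log2 at 9 h (95% interval 0.14 to 1.92) and 0.62 ± 0.29 over both hours, and neither passed (limma, adjusted p = 1.0000 and 0.9999). A second SPRED1 probe set gave 0.56 ± 0.52 over both hours, and its PRWT arrays of 9 h read 47.8 and 224.5 and its PR2VR arrays 715 and 614, against 41.5 and 333 for GFP.

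**Figure D2:**
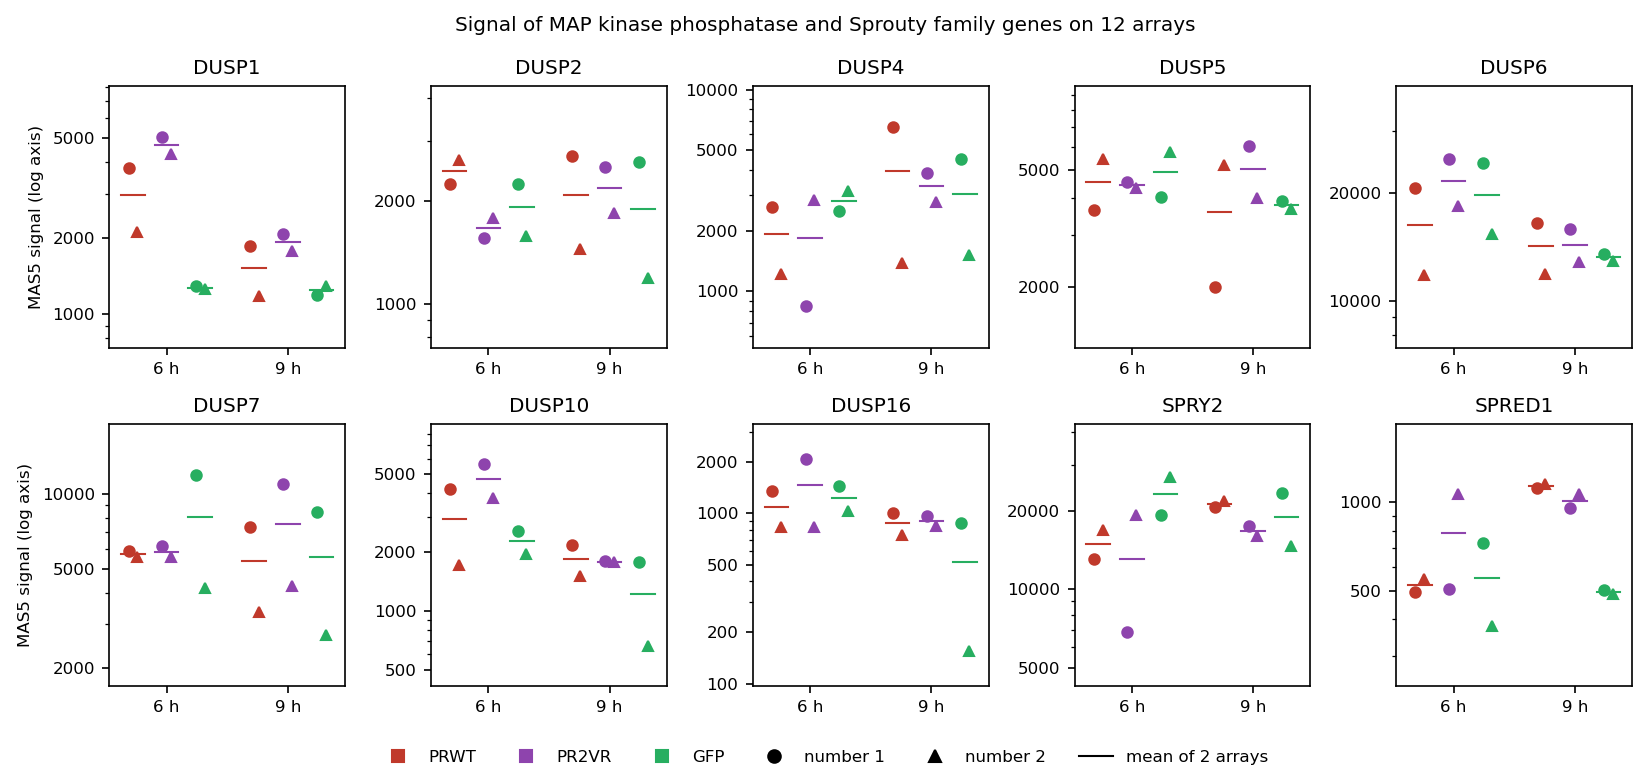
MAS5 signal (log axis) of the 10 genes on the 12 arrays, by hour and construct, with number 1 as circles, number 2 as triangles and a line at the mean of 2 arrays. DUSP1 fusion arrays of 6 h (2108 to 5026) lie above GFP (1252.1 and 1294), SPRED1 fusion arrays of 9 h (956 to 1156) lie above GFP (486 and 502), and SPRY2 fusion arrays of 6 h (6835 to 19316) lie below GFP (19349 and 26886).

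Across the family, the comparison of the fusions with GFP asks whether either PML-RARA goes with other levels of these inhibitors. In the fit without a block 0 of the 10 members passed, where 1 of 13959 genes did (0.00716%), and 1 member, DUSP1, had an unadjusted p under 0.05 (limma), where 3.14% of genes had. For PRWT alone 0 members passed (0.00716% of genes) and 1 had an unadjusted p under 0.05 (2.06%), and for PR2VR alone 0 passed (0.00716%) and 2, DUSP1 and DUSP10, had one (3.95%). With the set as a fixed block 0 members passed for both fusions together, where 0.315% of genes did, and 3 had an unadjusted p under 0.05, where 8.4% of genes had. For PR2VR alone that block gave 0 passed (0.294%) and 4 at an unadjusted p under 0.05 (11.1%). The members lay on both sides of 0, with 6 above and 4 below and a median log2 difference of 0.08, against -0.02 over all genes. At 6 h DUSP1 was the 1 member higher without overlap (4.76% of genes were) and SPRY2 the 1 member lower (4.27%). At 9 h SPRED1 was the 1 member higher (5.32%) and 0 were lower (6.28%). DUSP1 was also the 1 member whose PR2VR arrays of both hours all exceeded the GFP arrays (1.48% of genes), and 0 had them all below (1.16%). Over both hours and both fusions 0 members were free of overlap, where 0.229% of genes were higher and 0.251% lower.

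Within sets, each fusion array can be set against the GFP array of its own hour and number, which gives 8 differences per gene. For DUSP1 they ran from -0.13 to 1.91 with a median of 0.75, and 7 of 8 were above 0. DUSP10 had 7 of 8 above 0 as well, from -0.19 to 1.34 with a median of 0.81, and SPRED1 had 6 of 8, from -0.50 to 1.36 with a median of 0.95. SPRY2 had 2 of 8 above 0, from -1.49 to 0.58 with a median of -0.44. The mean of both fusions exceeded GFP in all 4 sets for 2 members, DUSP1 and DUSP10, as it did for 9.23% of genes, and fell short of it in all 4 for 0 members, as it did for 10.7% of genes. The remaining 6 members, DUSP2, DUSP4, DUSP5, DUSP6, DUSP7 and DUSP16, had 3 to 5 of 8 above 0.

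**Figure D3:**
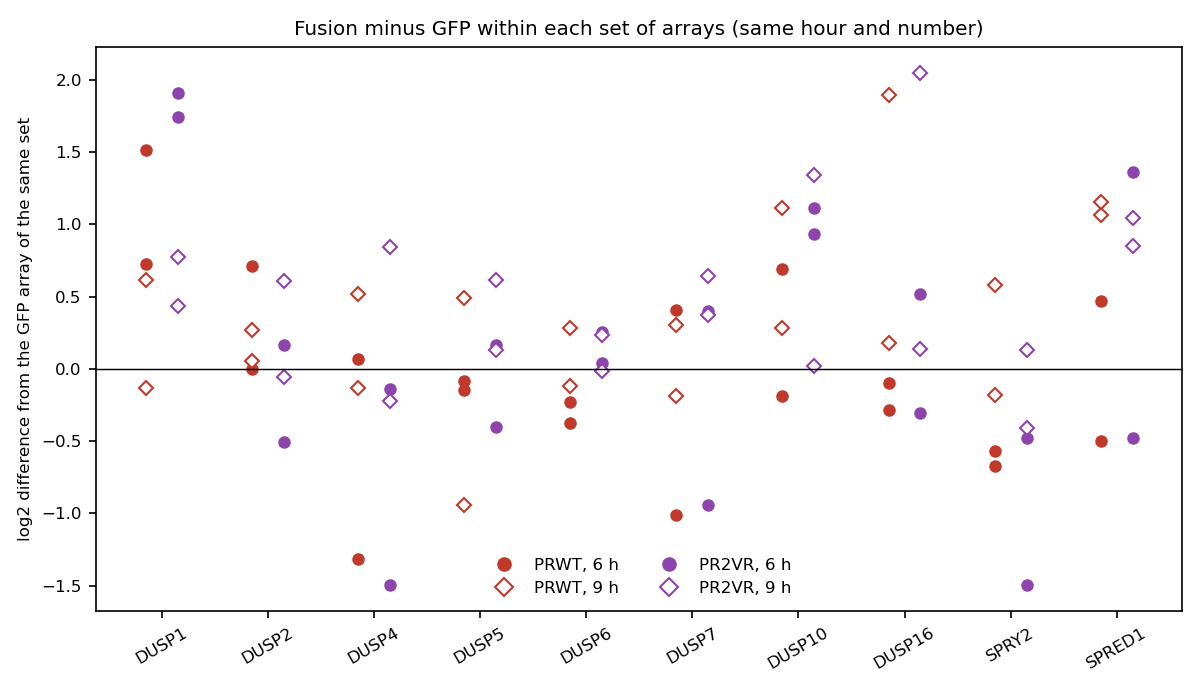
Log2 difference of each fusion array minus the GFP array of the same hour and number, for the 10 genes, 8 points per gene. DUSP1 and DUSP10 have 7 of 8 points above 0, SPRED1 has 6 and SPRY2 has 2.

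Between the 2 fusions, 0 of 10 members passed, as did 0 of 13959 genes (0%), and 0 members had an unadjusted p under 0.05 in the fit without a block (limma), where 1.55% of genes had. DUSP1 was higher in PR2VR than in PRWT cells by 0.54 ± 0.29 in log2 (95% interval -0.10 to 1.17, limma, adjusted p = 0.9995). With the fixed block its unadjusted p was 0.0412 (limma, adjusted p = 0.725), where 6.86% of genes had one under 0.05. On the probe set used, the 2 PR2VR arrays of DUSP1 exceeded the 2 PRWT arrays at 6 h and overlapped them at 9 h. The share of genes with such an order was not computed. The second DUSP1 probe set showed the reverse at 6 h, with 682 and 442 on the PR2VR arrays, against 995 and 996 on the PRWT arrays. DUSP10 differed by 0.38 ± 0.37 (95% interval -0.43 to 1.19) and SPRY2 by -0.35 ± 0.33 (95% interval -1.07 to 0.36). The intervals of all 10 members included 0, and that of DUSP4 reached from -1.18 to 1.10, so differences of over 1 log2 unit between the 2 forms could not be seen or dismissed for that gene.

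**Figure D4:**
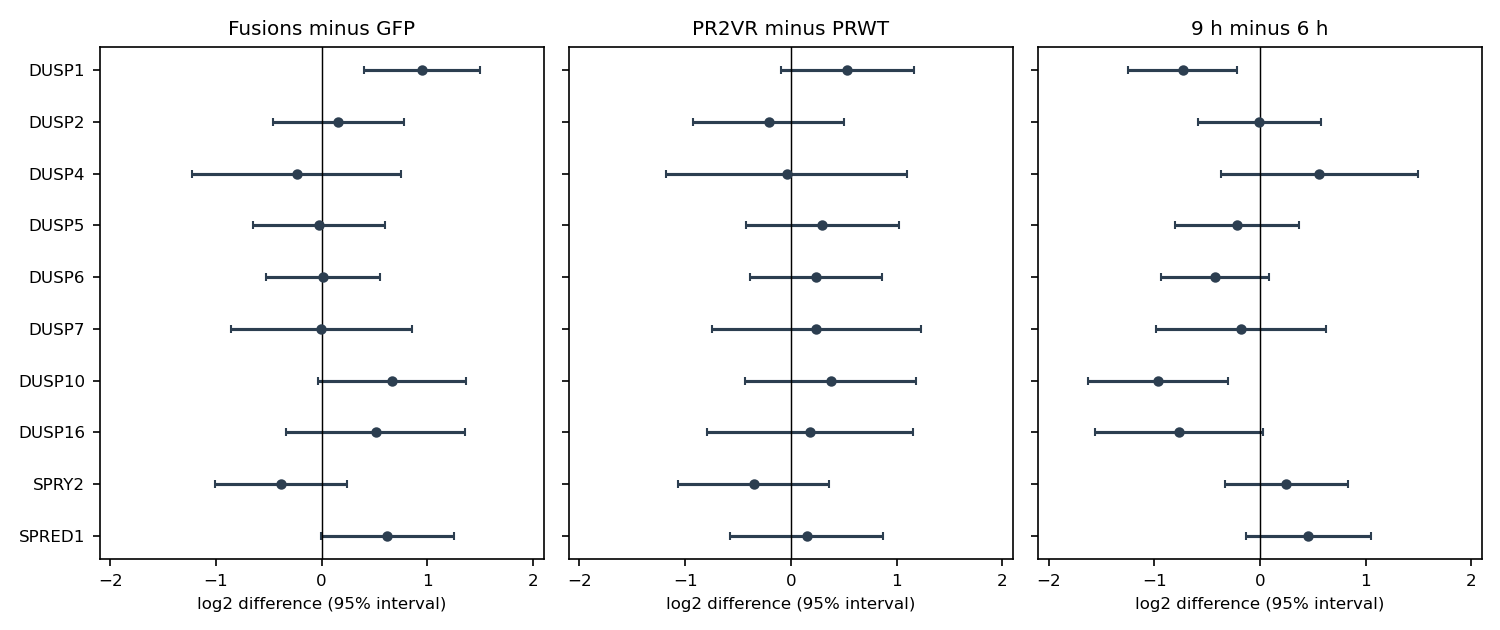
Log2 differences of the 10 genes with 95% intervals (limma, 12 arrays) for the fusions minus GFP, PR2VR minus PRWT and 9 h minus 6 h. The interval of DUSP1 lies above 0 in the first panel (0.40 to 1.49), all 10 intervals include 0 in the second, and those of DUSP1 and DUSP10 lie below 0 in the third.

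Between the hours, DUSP10, DUSP16 and DUSP1 had the largest differences in size among the members, all lower at 9 h, and DUSP10 and DUSP1 the smallest p. DUSP10 differed by -0.97 ± 0.31 in log2 (95% interval -1.63 to -0.31, limma, adjusted p = 0.225) and DUSP1 by -0.73 ± 0.24 (95% interval -1.25 to -0.21, limma, adjusted p = 0.229). For neither gene were the 9 h arrays all below the 6 h arrays. In DUSP1 the difference was -1.08 ± 0.29 in fusion cells and -0.03 ± 0.41 in GFP cells. In DUSP10 it was -0.95 ± 0.37 in fusion cells and -1.0 ± 0.53 in GFP cells. Whether the fusion difference itself depended on the hour was tested as an interaction, which for DUSP1 was -1.05 ± 0.51 (95% interval -2.14 to 0.05) and did not pass (limma, adjusted p = 0.9999). Neither did the other 9 members or any of the genes tested (0%), and 0 members had an unadjusted p under 0.05 (limma), where 0.759% of genes had.

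Of the 10 members 0 passed between the hours, where 11 of 13959 genes did (0.0788%), and 2 had an unadjusted p under 0.05 (limma), where 15.1% of genes had. With the set as a random block 0 members and 0 genes passed, and the adjusted p was 0.857 for both DUSP1 and DUSP10. No member was free of overlap between the hours, where 1.25% of genes were higher and 0.666% lower. DUSP16 differed by -0.77 ± 0.37 and DUSP6 by -0.43 ± 0.23, while DUSP4 differed by 0.56 ± 0.43 and SPRED1 by 0.46 ± 0.27. DUSP6 has another probe set that read 2836 to 4544 at 9 h, against 5437 to 7969 at 6 h, without overlap (-0.81 ± 0.22 in log2). Probe sets of 5 members disagreed on this difference. A second DUSP10 probe set gave 0.06 ± 0.27 and a second DUSP1 probe set -0.05 ± 0.33, both near 0. The others of DUSP4 gave 0.07 ± 0.44, near 0, and 0.99 ± 0.34. The others of DUSP16 gave 0.46 ± 0.32 and 1.29 ± 0.70, and that of SPRED1 -0.43 ± 0.49, opposite in sign to the ones used. The GAPDH 3'/5' ratio was 8.14 to 12.9 at 9 h number 1 and 2.21 to 2.75 at 9 h number 2, against 3.82 to 8.28 at 6 h, and its part in these differences was not tested. Without the 3 arrays of 9 h number 2 the difference was -0.61 for DUSP1, -0.66 for DUSP10, -0.32 for DUSP16 and 1.26 for DUSP4.

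Read by direction on the probe sets used, the family leaned one way where the 9 h GFP arrays entered. At 9 h all 10 members were above 0 between the fusions and GFP, with a median of 0.27 (all genes -0.04, 45.7% of them above 0). In GFP cells all 10 were below 0 between 9 h and 6 h, with a median of -0.33 (all genes 0.14, 59.8% of them above 0). Both comparisons use the same 2 GFP arrays of 9 h, and the 10 members are not replicates of each other. Other probe sets past the filter did not all share these signs. At 9 h they gave -0.51 for DUSP1, -0.27 and 0.03 for DUSP6, and -0.52 and 0.14 for DUSP16. They gave 0.49 and 0.32 for DUSP4, 0.26 for DUSP10 and 0.83 for SPRED1. In GFP cells the second DUSP10 probe set had a mean signal of 745 at 9 h and 650 at 6 h, whereas the third of DUSP6 had 4178 and 7115. Within the set of 9 h number 2, 9 of 10 members were above 0 with a median of 0.40 (all genes -0.03). Within that of number 1 it was 8 of 10 with a median of 0.15 (all genes -0.04). Against the mean of the 6 h GFP arrays, 9 of 10 members were below 0 on the GFP array of 9 h number 2 (median -0.64, all genes 0.20). On that of number 1 it was 6 of 10 (median -0.08, all genes 0.10). Both medians of the members were thus larger in size with number 2. On the GFP array of that number the probe sets used for DUSP10 and DUSP16 read lowest, though their other probe sets past the filter did not. In either comparison 0 of 10 members passed (0.00716% and 0% of genes passed), and 1 member had an unadjusted p under 0.05 in each (limma), where 2.08% and 4.85% of genes had.

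Among themselves the members did not vary as 1 block. Over the 12 arrays DUSP10 correlated with DUSP16 at r = 0.86, with DUSP1 at 0.79 and with DUSP6 at 0.79, and DUSP2 correlated with DUSP7 at 0.78. In both pairs, DUSP10 with DUSP16 (663 and 156) and DUSP2 with DUSP7 (1196 and 2716), the GFP array of 9 h number 2 read lowest. Other probe sets past the filter read 699 and 1074 for DUSP16 and 728 for DUSP10 on that array. The part of that array in these r values was not tested. SPRY2 ran against DUSP1 at r = -0.70 and against DUSP6 at -0.48. These are Pearson values of log2 signal over arrays that share sets, hours and constructs, given as a description. The genes most like DUSP1 over the arrays were ZBTB11 (r = 0.95), STAG2 (0.92), a cohesin subunit gene, and CBLB (0.92), a ubiquitin ligase gene. Those most like DUSP10 were C18orf54, SLC38A1 and SLC7A1, at r = 0.94 each, the last 2 being amino acid transporter genes. They were the top 3 of all tested genes for each, a search in which high values arise over so few arrays.

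Other genes of the pathway were read from 5 lists, in each of which 0 genes passed in either direction between the fusions and GFP, with or without the block. The 7 other Sprouty, SPRED and MAP kinase phosphatase genes had a median log2 difference of 0.09, with SPRY1 at 0.50 ± 0.38, SPRY4 at 0.48 ± 0.33, SPRED2 at 0.32 ± 0.27 and SPRED3 at -0.20 ± 0.35. The 10 atypical dual specificity phosphatases had a median of -0.00, with DUSP3 at 0.42 ± 0.24, DUSP14 at 0.31 ± 0.30, DUSP12 at 0.28 ± 0.28 and DUSP23 at -0.48 ± 0.31. These relatives thus lay around the median of all genes, -0.02.

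Of the receptor-to-ERK list, 20 of 28 genes were tested, with a median of -0.14. MAP3K8, a kinase above MEK in inflammatory signalling, differed by -0.91 ± 0.35, KSR1, a Raf scaffold, by -0.55 ± 0.25, RPS6KA1, a kinase below ERK, by -0.52 ± 0.31, and CSF1R, the receptor of a macrophage growth factor, by -0.48 ± 0.27. MAP3K8 had 626 and 1598 on the PRWT arrays and 686 and 1397 on the PR2VR arrays of 9 h, against 1689 and 1960.0 on the GFP arrays. All 4 fusion arrays of 9 h thus lay below GFP, as 6.28% of genes did, but at 6 h 1 PR2VR array read 2091, above 1 of the GFP arrays. KSR1, RPS6KA1 and CSF1R also lay below GFP without overlap at 9 h. CSF1R did so at 6 h as well, as 4.27% of genes did, though the nearest values, 627 and 629.5, were close. These genes were named for their small p between the same groups, so the lack of overlap is no further support. In the list of JNK and p38 kinases, 12 of 16 were tested, with a median of -0.00. MAPKAPK2, a kinase below p38, differed by -0.59 ± 0.37, MAPKAPK3 by -0.37 ± 0.35, MAP2K6 by -0.36 ± 0.41 and MAP3K1 by 0.43 ± 0.30.

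Transcripts known to respond to ERK were read as well, and 16 of 19 were tested, with a median of -0.11 between the fusions and GFP. In that comparison 3 had an unadjusted p under 0.05 without a block (limma), where 3.14% of genes had. With the fixed block 6 had one, where 8.4% of genes had. The list was chosen with earlier results of these data known, so these counts are a description. FOS, an early response transcription factor gene, read 1943 and 2362 on the PRWT arrays and 2738.5 and 3393 on the PR2VR arrays of 6 h, against 1274 and 934 on the GFP arrays. The 6 h fusion arrays of FOS lay above GFP without overlap, as those of DUSP1 and of 4.76% of genes did. At 9 h FOS read 1113 and 1459 on the PRWT arrays and 1306 and 2161 on the PR2VR arrays, against 1320.5 and 796 on the GFP arrays, with overlap. FOS differed by 0.83 ± 0.26 over both hours (limma, adjusted p = 0.949, or 0.247 with the fixed block). PLAUR, the urokinase receptor gene, differed the other way by -0.59 ± 0.21. It read 10383 to 14748 on the fusion arrays of both hours, against 17827 to 21382 on the GFP arrays. PLAUR was thus lower without overlap over both hours, as 0.251% of genes were. CCND1, the cyclin D1 gene, also differed the other way, by -0.86 ± 0.39, and IER2, an early response gene, by -0.57 ± 0.27. Between 9 h and 6 h the 16 had a median of -0.34, against 0.13 for all genes. In the fit without a block 0 passed and 6 had an unadjusted p under 0.05 (limma), beside 15.1% of genes. With the set as a random block 0 passed and 3 had one, beside 5.49% of genes.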

How the data were processed

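Total RNA of 12 samples was hybridised to Affymetrix arrays as biotin-labelled cRNA, per the labels' protocols. The authors deposited linear intensity values made with MAS5, per the submitters' processing notes. The MAS5 version was not stated there, and the signals run from 0.5 to 289408.3. They share a trimmed mean and were not normalized further, which hides any change of total RNA per cell. Probe sets were named from the platform annotation, updated through RefSeq. Groups and replicate numbers come from the titles.

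Values were taken as log2(signal + 62.5), the added value being the 20th percentile of all values, so fold changes of dim genes are understated. Genes whose mean reached the 40th percentile of probe sets (signal 168.9) were tested, 13959 of 19775. limma 3.58.1 in R 4.3.3 fitted 1 mean per group over all 12 arrays (6 residual degrees of freedom) with a variance trend. Adjusted p is Benjamini-Hochberg over the 13959 genes, passed under 0.05. Errors are SE of a log2 difference, and intervals are 95%. The number of arrays, 2 per group, limits the precision. At most 0.0677% of probe sets were equal on any 2 arrays.

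The deviation of an array from its group mean correlated with that of the same number in another construct at 0.15 to 0.36 at 6 h and at 0.56 to 0.63 at 9 h, so the numbers of the titles pair the arrays within an hour. The set was therefore also fitted as a block, fixed (4 residual degrees of freedom) or random (correlation 0.41). Only the random block could be fitted for the comparison of hours, since each set lies in 1 hour. Alternatives were other offsets (16 and 250), filters, probe set rules, normalization, no trend, and leaving out arrays. The fits were tested on simulated data.

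The members and the pathway lists were chosen with earlier results of these data known. All 10 members were described, with up to 4 genes per pathway list by smallest unadjusted p between the fusions and GFP, and the 3 genes most like DUSP1 and DUSP10, the members of smallest p between the fusions and GFP and between the hours. Of the other marker lists, 2 of 5 T cell, 1 of 2 measured erythroid and 2 of 5 epithelial and fibroblast markers passed the filter. DUSP4 and DUSP5 had no promoter window matched.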

Additional observations from a re-analysis of the deposited data

How the results depend on the processing

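In each of 6 comparisons (the fusions, PRWT and PR2VR against GFP, PR2VR against PRWT, 9 h against 6 h, and their interaction) 0 members passed in the fit without a block and under each of these alternatives: the fixed replicate block (random for the hours), both offsets, no filter, all probe sets, the mean of a gene's probe sets, quantile normalization, no variance trend, leaving out the set of 9 h number 2, and leaving out each of the 12 arrays in turn. The exception came with the random replicate block, added after the data were seen, where 1 member, DUSP1, passed between PR2VR and GFP. That count was 0 with all probe sets tested. Without 1 array it ran from 0 to 2. It was 1 without either PRWT array of 6 h or without PR2VR of 6 h number 1, and 2 without PR2VR of 6 h number 2, where SPRY2 passed too (log2 -0.86, adjusted p = 0.0233 in limma). Comparisons within 1 hour or 1 construct were not recomputed beyond the block. The replicate block changed no other call of a member, and left the log2 differences as they were.

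Log2 differences that were not called changed sign as follows, and the cause was not tested. With an offset of 250 the interaction of DUSP10 was -0.013. With quantile normalization DUSP6 was -0.0015 between the fusions and GFP. The mean of a gene's probe sets gave -0.070 for DUSP6 and -0.0080 for DUSP16 between the fusions and GFP, and -0.12 for DUSP16 between PRWT and GFP. It also gave -0.023 for DUSP7 between PR2VR and GFP, and 0.011 for DUSP4 between PR2VR and PRWT. Between 9 h and 6 h that mean gave 0.065 for DUSP7 and 0.22 for DUSP16, and the interaction of DUSP10 was -0.069. Without the set of 9 h number 2, DUSP16 was -0.0062 between PRWT and GFP and DUSP2 -0.11 between PR2VR and GFP. Between 9 h and 6 h DUSP2 was then 0.39 and DUSP7 0.50. The interactions were then -0.091 for DUSP2, -0.048 for DUSP5 and -0.49 for DUSP10.

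Leaving out 1 array turned the sign of 78 member values, all of them not called, and the log2 ranges of those members follow. Between the fusions and GFP the range was -0.12 to 0.43 for DUSP2, -0.62 to 0.15 for DUSP4 and -0.19 to 0.15 for DUSP5. It was -0.15 to 0.17 for DUSP6, -0.41 to 0.40 for DUSP7 and -0.015 to 1.04 for DUSP16. Between PRWT and GFP the range was -0.012 to 0.53 for DUSP2, -0.76 to 0.33 for DUSP4 and -0.51 to 0.16 for DUSP5. It was -0.31 to 0.092 for DUSP6, -0.53 to 0.28 for DUSP7 and -0.10 to 0.95 for DUSP16. Between PR2VR and GFP the range was -0.22 to 0.32 for DUSP2, -0.67 to 0.17 for DUSP4 and -0.016 to 0.27 for DUSP5. It was -0.035 to 0.29 for DUSP6 and -0.28 to 0.52 for DUSP7. Between PR2VR and PRWT the range was -0.43 to 0.010 for DUSP2, -0.59 to 0.51 for DUSP4 and -0.037 to 0.64 for DUSP5. It was -0.094 to 0.58 for DUSP7, -0.14 to 0.50 for DUSP16 and -0.73 to 0.020 for SPRY2. It was -0.10 to 0.40 for SPRED1. Between 9 h and 6 h the range was -0.19 to 0.17 for DUSP2, -0.44 to 0.0040 for DUSP5 and -0.45 to 0.091 for DUSP7. For the dependence of the fusion difference on the hour the range was -0.42 to 0.67 for DUSP2, -0.15 to 0.53 for DUSP5 and -0.16 to 0.50 for DUSP6. It was -0.24 to 1.38 for DUSP7 and -0.62 to 0.72 for DUSP10. DUSP1 kept its sign in all these omissions, from 0.84 to 1.05 between the fusions and GFP and from 1.16 to 1.27 between PR2VR and GFP. The SE of the members between the fusions and GFP, 0.25 to 0.46, limits the differences that 2 arrays per group can show, and no detection calls were used.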
